A study of Mus musculus with 11 samples.

Results

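The genes described here are the mouse p53 gene Trp53 and 9 genes that p53 is known to switch on: Mdm2, Ccng1, Bbc3, Pmaip1, Trp53inp1, Sesn1, Phlda3, Zmat3 and Perp. They were taken by exact gene symbol from the array annotation. The 9 targets were found on 15 of the 22690 probe sets, and they are 9 of the 12393 genes with a probe set of their own; Trp53 was not analysed here. Messenger RNA was measured on Affymetrix oligonucleotide arrays in JB6 cells, a mouse line derived from epidermis. RT101, a tumorigenic variant of JB6, was sampled untreated as colonies from soft agar at day 7 (3 arrays) and as an attached monolayer (2 arrays). JB6 clone 41-5A, a single parental clone, was sampled as colonies grown for 7 days over agar with basic fibroblast growth factor (bFGF) at 10 ng/ml (3 arrays) and as a monolayer labelled bFGF-treated, with no dose or time given (3 arrays). All clone 41-5A arrays, called bFGF-JB6 here, are thus labelled bFGF-treated, while RT101 was untreated. Line and bFGF treatment therefore cannot be told apart wherever RT101 is set against bFGF-JB6, the difference between their colony changes included. The study compared colonies with monolayers of the same cells to look for expression changes common to irreversible (RT101) and reversible (bFGF-driven) growth without anchorage.

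p53 is a transcription factor that is stabilised by DNA damage, oncogene activity and other stresses and then raises genes for cell cycle arrest, repair, metabolism and cell death. Its level is held down by Mdm2, a ubiquitin ligase that is itself a p53 target, which closes a feedback loop. The targets differ in what they do and in which other factors drive them, so their messages need not move together. Since p53 is controlled largely at the protein level, messages of its targets are the usual readout on arrays.

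The log2 signals had medians of 5.82 to 5.95 and lower quartiles of 3.78 to 3.91 per array, and a gene under the lower quartile is called near the floor here. Replicate arrays had pairwise correlations between 0.989 and 0.998. On 2 arrays, bFGF-JB6 colonies replicate 3 and bFGF-JB6 monolayer replicate 1, control probes at the 3' end of Gapdh read 0.35 and 0.19 higher than those at its 5' end, while the same difference was -0.08 to -0.01 on the remaining arrays. The series title calls these skin cells, but 5 of 8 keratinocyte markers lay below 4 in each group, with group means of E-cadherin (Cdh1) between 2.39 and 2.45. Of 8 mesenchymal markers 1 lay below 4, and Vim averaged between 12.87 and 13.16. Summed over those 8, signals were 75.0 to 75.4 in RT101 colonies and 68.8 to 69.1 in RT101 monolayers, and 74.5 to 75.9 in bFGF-JB6 colonies and 73.2 to 74.4 in bFGF-JB6 monolayers. Sums over 8 macrophage markers were 34.0 to 35.0 in RT101 colonies and 33.6 to 33.9 in RT101 monolayers, and 39.5 to 41.1 in bFGF-JB6 colonies and 36.8 to 37.6 in bFGF-JB6 monolayers. Of those 8, 3 rose in bFGF-JB6 colonies and 2 in RT101 colonies, where 14.1% and 17% of all genes rose. Lyz2 rose in both lines. It averaged 5.81 in RT101 colonies and 5.18 in RT101 monolayers, and 4.69 in bFGF-JB6 colonies and 4.34 in bFGF-JB6 monolayers. Cd68 averaged 8.31 in bFGF-JB6 colonies and 6.45 in bFGF-JB6 monolayers, and 3.54 in RT101 colonies and 3.74 in RT101 monolayers. Csf1r averaged 5.98 in bFGF-JB6 colonies and 5.06 in bFGF-JB6 monolayers, and 4.81 in RT101 colonies and 4.76 in RT101 monolayers. Cd14 averaged 8.63 in bFGF-JB6 colonies and 8.69 in bFGF-JB6 monolayers. In RT101 it rose, with averages of 7.63 in colonies and 7.30 in monolayers. Ptprc (2.35 to 2.53), Adgre1 (3.02 to 3.31) and Itgam (2.86 to 3.08) averaged near the floor in the 4 groups. Of 6 endothelial markers 5 lay below 4, with sums of 19.8 to 22.0. The part of these marker differences in the results was not tested. In such bulk RNA, fewer cells expressing a gene and less RNA per cell cannot be told apart. Separate cultures are not stated for the replicates, so the p-values rest on a spread that may be only technical.

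The stretches upstream of Mdm2, Ccng1 and Sesn1 are shown because they alone, among 8 promoter windows found for 5 of the measured targets, held an exact match to the p53 half-site consensus, the ten-letter element that p53 binds in pairs. Windows were taken from RefSeq on build GRCm38.p6 (300 bases each, Bbc3 having 3 start sites and Sesn1 having 2), and the consensus reads alike on both strands. Of all 32851 promoter windows 8.36% held such a match, so a match by itself is common. Each line gives the 250 bases before the gene's start, 5' to 3' on the gene's strand, with the match in capitals.
Mdm2 (chr10:117710759-117711008, minus strand): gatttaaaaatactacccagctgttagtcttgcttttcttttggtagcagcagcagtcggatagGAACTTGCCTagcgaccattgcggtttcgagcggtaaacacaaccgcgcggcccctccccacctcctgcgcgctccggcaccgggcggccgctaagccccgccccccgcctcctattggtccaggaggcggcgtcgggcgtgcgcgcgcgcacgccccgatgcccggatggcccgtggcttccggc
Ccng1 (chr11:40755287-40755536, minus strand): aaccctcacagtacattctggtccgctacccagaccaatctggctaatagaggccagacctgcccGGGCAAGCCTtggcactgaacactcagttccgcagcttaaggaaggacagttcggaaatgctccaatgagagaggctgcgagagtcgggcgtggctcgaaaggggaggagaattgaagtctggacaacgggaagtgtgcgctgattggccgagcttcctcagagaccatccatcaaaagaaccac
Sesn1, downstream start (chr10:41887189-41887438, plus strand): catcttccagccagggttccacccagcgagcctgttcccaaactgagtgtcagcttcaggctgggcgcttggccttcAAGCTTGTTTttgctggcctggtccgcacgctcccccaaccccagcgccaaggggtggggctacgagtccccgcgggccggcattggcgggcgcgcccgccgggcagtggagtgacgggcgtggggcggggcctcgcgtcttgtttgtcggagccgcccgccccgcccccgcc
The match began 186 bases before the start in Mdm2, 185 in Ccng1 and 173 in Sesn1. The Ccng1 window was also the only one of the 8 with a pair of half-sites no more than 13 bases apart when 1 mismatch outside the core C and G was allowed in each, a feature of 2.71% of all windows. Phlda3, Bbc3 and the upstream start of Sesn1 had no exact match in these windows. Half-sites with more than 1 mismatch were not searched for, so the lack of a match does not show that p53 sites are missing. A match describes the letters only and was not tested for binding.

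Mdm2, the p53 ubiquitin ligase, was lower in colonies than in monolayers in both lines and lower in RT101 than in bFGF-JB6 cells in both growth states. Its log2 signals were 8.97, 9.01 and 9.11 in RT101 colonies, against 9.87 and 9.87 in RT101 monolayers. They were 10.65, 10.90 and 10.79 in bFGF-JB6 colonies, against 11.25, 11.18 and 11.28 in bFGF-JB6 monolayers. None of the 4 groups overlapped, and the order ran from RT101 colonies at the bottom to bFGF-JB6 monolayers at the top. The log2 change with growth as colonies was -0.84 in RT101 (SE 0.09, limma adjusted p = 1.19e-05) and -0.46 in bFGF-JB6 (SE 0.08, adjusted p = 0.00102). RT101 stood below bFGF-JB6 by 3.37-fold in colonies (adjusted p = 1.49e-09) and by 2.58-fold in monolayers (adjusted p = 5.16e-08). A second probe set of the gene stood at -0.69 in RT101 colonies (adjusted p = 0.0134 over all probe sets) and at -0.43 in bFGF-JB6 colonies (adjusted p = 0.0760). Without the 2 arrays of raised 3' signal its bFGF-JB6 value passed, at -0.37 (adjusted p = 0.0083).

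**Figure D1:**
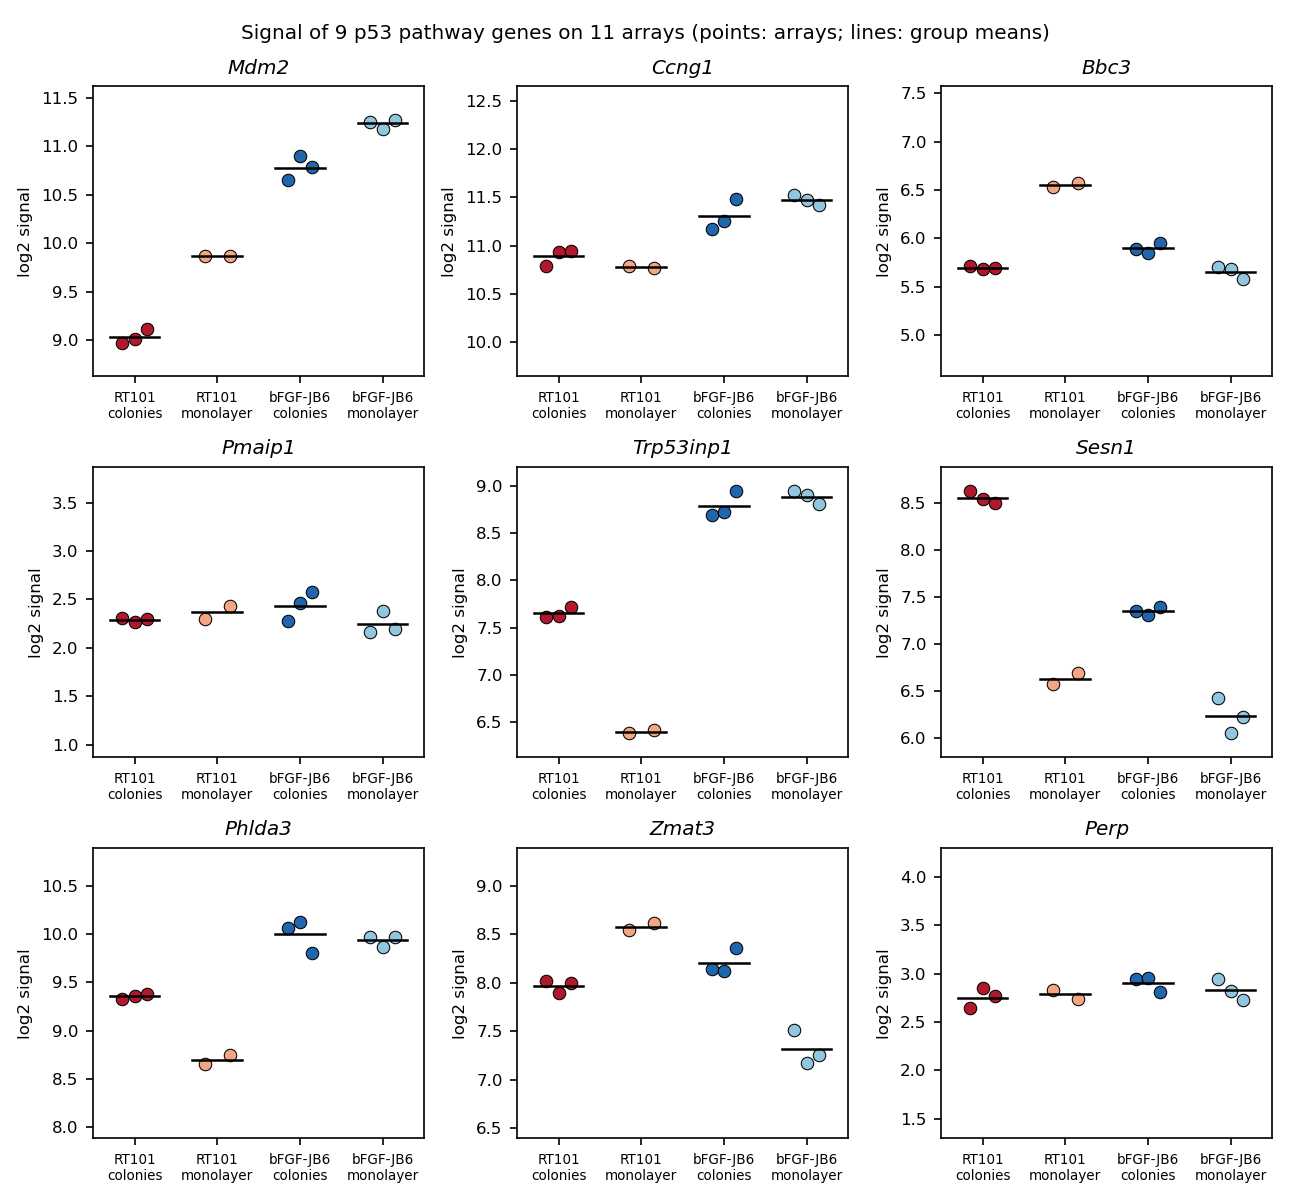
Log2 signal of each of the 9 target genes (brightest probe set, vertical axis) in RT101 colonies, RT101 monolayers, bFGF-JB6 colonies and bFGF-JB6 monolayers. Points are arrays and horizontal lines are group means; every vertical axis spans at least 3 log2 units. Mdm2 and Trp53inp1 are lowest in RT101 groups, Sesn1 is highest in RT101 colonies, and Pmaip1 and Perp stay near the floor.

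Among targets tied to cell cycle and growth control, Ccng1 was lower in RT101 cells and did not pass the test between colonies and monolayers. Ccng1 encodes cyclin G1, which recruits a phosphatase to Mdm2. Its signals were 10.79, 10.94 and 10.95 in RT101 colonies and 10.79 and 10.77 in RT101 monolayers, against 11.18, 11.25 and 11.48 in bFGF-JB6 colonies and 11.53, 11.47 and 11.42 in bFGF-JB6 monolayers. On this probe set, the brightest, each RT101 array lay below each bFGF-JB6 array, while colonies and monolayers overlapped within a line. The difference of RT101 from bFGF-JB6 was -0.41 in colonies (SE 0.09, adjusted p = 0.00227) and -0.69 in monolayers (SE 0.10, adjusted p = 8.05e-05). The colony change was 0.11 in RT101 (95% interval -0.11 to 0.33, adjusted p = 0.498) and -0.17 in bFGF-JB6 (-0.37 to 0.03, adjusted p = 0.206). Without bFGF-JB6 colonies replicate 3, one of the arrays of raised 3' signal, the bFGF-JB6 value was -0.26 and passed (adjusted p = 0.0331). On the other Ccng1 probe sets RT101 and bFGF-JB6 overlapped in colonies, at -0.32 (adjusted p = 0.300 over all probe sets) and -0.42 (adjusted p = 0.0290). In monolayers they did not overlap, at -0.82 (adjusted p = 0.0166) and -0.83 (adjusted p = 0.000839). Without the 2 arrays of raised 3' signal the differences of RT101 from bFGF-JB6 in colonies passed, at -0.60 (adjusted p = 0.000117) and -0.60 (adjusted p = 0.000261). The bFGF-JB6 colony changes were then -0.30 (adjusted p = 0.0304) and -0.10 (adjusted p = 0.513). On both of these probe sets RT101 colonies lay above RT101 monolayers without overlap, at 0.14 (adjusted p = 0.759) and 0.21 (adjusted p = 0.384), which did not pass.

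Phlda3, which encodes a small PH-domain protein that competes with AKT for membrane lipids, rose in RT101 colonies. Signals were 9.33, 9.36 and 9.38 in RT101 colonies, against 8.65 and 8.75 in RT101 monolayers. In bFGF-JB6 they were 10.07, 10.12 and 9.81 in colonies and 9.96, 9.86 and 9.97 in monolayers, which overlapped. The rise in RT101 was 1.58-fold (log2 change 0.66, SE 0.10, adjusted p = 0.000199), and the bFGF-JB6 value was 0.07 (95% interval -0.13 to 0.26, adjusted p = 0.651). RT101 stood below bFGF-JB6, at a log2 difference of -0.64 in colonies (adjusted p = 5.20e-05) and -1.23 in monolayers (adjusted p = 2.94e-07).

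Trp53inp1 had the widest spread of group means of the 9 genes. It encodes a stress-induced nuclear protein that promotes p53 phosphorylation and takes part in autophagy. Its signals were 7.62, 7.62 and 7.72 in RT101 colonies, against 6.38 and 6.42 in RT101 monolayers. In bFGF-JB6 they were 8.70, 8.72 and 8.94 in colonies and 8.94, 8.91 and 8.81 in monolayers. RT101 monolayers were lowest by a wide margin, RT101 colonies came next, and the bFGF-JB6 groups overlapped at the top. The rise in RT101 colonies was 2.38-fold (log2 change 1.25, SE 0.10, adjusted p = 3.61e-07), while the bFGF-JB6 value was -0.10 (95% interval -0.29 to 0.09, adjusted p = 0.442). RT101 was below bFGF-JB6 by 5.60-fold in monolayers (adjusted p = 1.69e-10) and by 2.19-fold in colonies (adjusted p = 1.40e-07).

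Sesn1 rose in colonies of both lines. Sestrin 1 is a stress-induced protein that restrains the growth kinase mTORC1 when amino acids are scarce and is also known as a FOXO target. Its signals were 8.63, 8.55 and 8.51 in RT101 colonies, against 6.58 and 6.69 in RT101 monolayers. They were 7.35, 7.31 and 7.40 in bFGF-JB6 colonies, against 6.42, 6.05 and 6.23 in bFGF-JB6 monolayers. Colonies stood above monolayers on every array of either line. The rise was 3.81-fold in RT101 (log2 change 1.93, SE 0.11, adjusted p = 1.70e-08) and 2.17-fold in bFGF-JB6 (1.12, SE 0.10, adjusted p = 1.31e-06). RT101 exceeded bFGF-JB6 by 1.21 in colonies (adjusted p = 2.05e-07) and by 0.40 in monolayers (adjusted p = 0.00765), a call lost without RT101 monolayer replicate 2 (adjusted p = 0.0732). Both other probe sets of Sesn1 rose as well, by 2.08 and 1.59 in RT101 colonies and by 1.41 and 1.04 in bFGF-JB6 colonies. In monolayers RT101 exceeded bFGF-JB6 on them by 0.64 (adjusted p = 0.00792 over all probe sets) and 1.25 (adjusted p = 1.2e-05). The last of these probe sets averaged 3.76 in bFGF-JB6 monolayers, near the floor.

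Zmat3 moved in opposite directions in the 2 lines. It encodes a zinc finger protein that binds RNA and influences splicing. Signals were 8.02, 7.90 and 8.0 in RT101 colonies, against 8.55 and 8.61 in RT101 monolayers. They were 8.14, 8.12 and 8.36 in bFGF-JB6 colonies, against 7.51, 7.17 and 7.25 in bFGF-JB6 monolayers. In RT101 each colony array lay below each monolayer array, and in bFGF-JB6 each lay above. The log2 change was -0.61 in RT101 (SE 0.11, adjusted p = 0.000889) and 0.89 in bFGF-JB6 (SE 0.10, adjusted p = 1.76e-05). In monolayers RT101 exceeded bFGF-JB6 by 1.27 (adjusted p = 6.49e-07). In colonies the difference was -0.23 (95% interval -0.45 to -0.01, adjusted p = 0.0839), which did not pass, though the groups did not overlap. It passed without bFGF-JB6 monolayer replicate 1 (adjusted p = 0.0485) and under cyclic loess scaling (-0.27, adjusted p = 0.0396). A test limited to genes at or above the median level passed it too (adjusted p = 0.045).

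Of the targets tied to cell death, Bbc3 changed and the other pair lay near the floor. Bbc3 encodes PUMA, a BH3-only protein that triggers mitochondrial apoptosis. Its signals were 5.72, 5.68 and 5.69 in RT101 colonies, against 6.53 and 6.57 in RT101 monolayers. They were 5.89, 5.84 and 5.95 in bFGF-JB6 colonies, against 5.70, 5.69 and 5.57 in bFGF-JB6 monolayers. RT101 monolayers stood alone at the top. Bbc3 fell by 0.85 on the log2 scale in RT101 colonies (SE 0.08, adjusted p = 3.54e-06) and stood 0.89 higher in RT101 than in bFGF-JB6 monolayers (SE 0.08, adjusted p = 1.07e-06).

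The remaining Bbc3 differences were small. The rise in bFGF-JB6 colonies was 0.24 (SE 0.08, adjusted p = 0.0279). It was not called without bFGF-JB6 colonies replicate 1 (adjusted p = 0.0543) or 3 (0.0563), or without bFGF-JB6 monolayer replicate 2 (0.0512) or 3 (0.122). Leaving out the 2 arrays of raised 3' signal (0.0507), centring arrays on their medians (0.0526) and cyclic loess scaling (0.0556) lost it too. So did a trended robust variance (0.0761) and a fit to these 2 groups alone (0.0947). RT101 and bFGF-JB6 colonies differed by -0.20 (adjusted p = 0.0490). That call was lost without any single array other than bFGF-JB6 colonies replicate 2, with adjusted p from 0.0512 to 0.130. It was lost as well with the replicate number as a block (adjusted p = 0.0783 by title, 0.0595 by description letter). In this comparison same-numbered arrays deviated alike, so the numbers may pair the arrays, which was not tested.

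Pmaip1, which encodes the BH3-only protein NOXA, ranged from 2.27 to 2.30 in RT101 colonies and from 2.29 to 2.44 in RT101 monolayers. In bFGF-JB6 it ranged from 2.28 to 2.57 in colonies and from 2.16 to 2.38 in monolayers. Perp, a membrane protein of desmosomes in epidermis and an apoptosis effector, ranged from 2.64 to 2.85 in RT101 colonies and from 2.74 to 2.83 in RT101 monolayers. In bFGF-JB6 it ranged from 2.81 to 2.95 in colonies and from 2.73 to 2.95 in monolayers. Both genes lay below the lower quartile of every array and no contrast of either passed (adjusted p from 0.163 to 0.852), so these signals do not show whether the messages were present.

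The colony changes of the 2 lines were also tested against each other; this contrast and those between lines share arrays with the colony comparisons. The RT101 colony change exceeded the bFGF-JB6 one for Trp53inp1 by 1.35 (SE 0.13, adjusted p = 3.78e-06), for Sesn1 by 0.81 (SE 0.14, adjusted p = 0.000818) and for Phlda3 by 0.59 (SE 0.14, adjusted p = 0.00525). The other Sesn1 probe sets stood at 0.67 (adjusted p = 0.0494 over all probe sets) and 0.55 (0.0516, not called). Without the 2 arrays of raised 3' signal neither passed, at 0.57 (0.122) and 0.50 (0.0731). The second Trp53inp1 probe set stood at 1.07 (0.0809, not called), and passed without those arrays (1.06, 0.0208). The difference was -1.5 for Zmat3 (SE 0.15, adjusted p = 6.55e-06) and -1.09 for Bbc3 (SE 0.11, adjusted p = 7.84e-06). For Mdm2 the difference was -0.38 (SE 0.13, adjusted p = 0.0381). The Mdm2 call was lost without any one of 8 arrays, namely RT101 colonies replicates 1 and 2, both RT101 monolayers, bFGF-JB6 colonies replicate 2 and the 3 bFGF-JB6 monolayers (adjusted p 0.0542 to 0.101), with the description letter as a block (0.0623), when probe sets were averaged (0.123) and without the 2 arrays of raised 3' signal (0.0551). Ccng1 did not pass (0.28, adjusted p = 0.168), but did without bFGF-JB6 colonies replicate 3 (0.37, adjusted p = 0.0333).

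**Figure D2:**
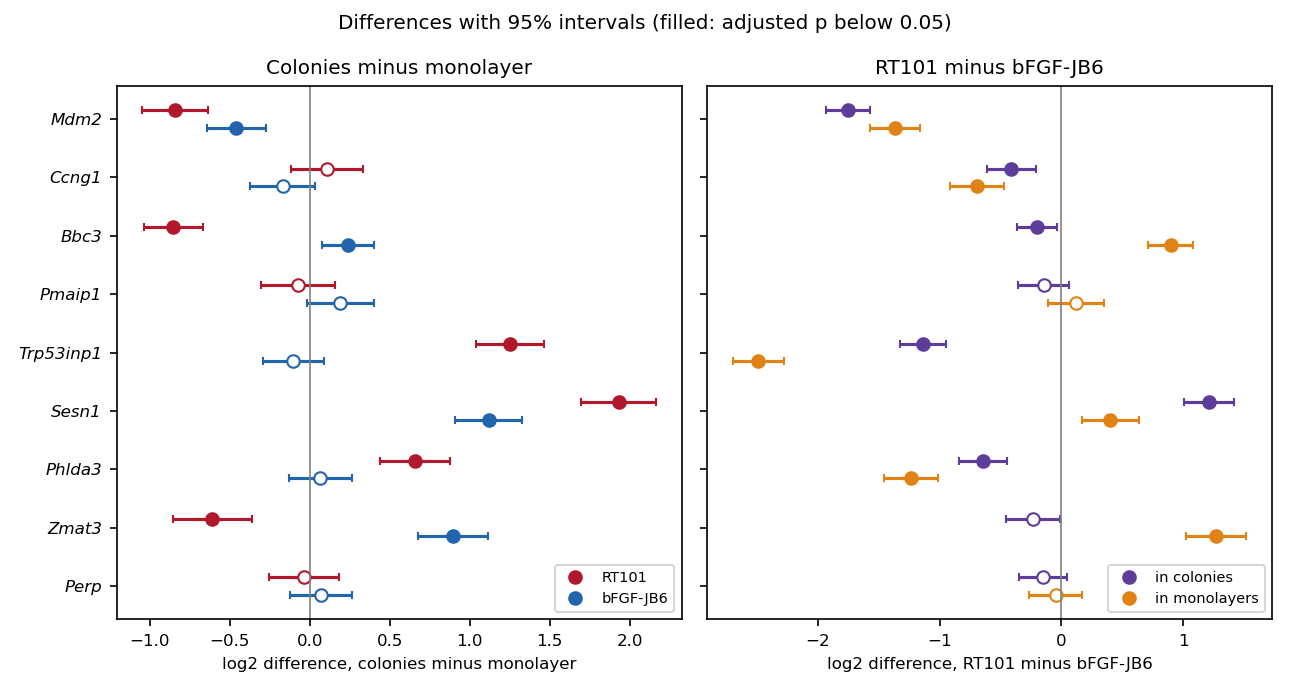
Log2 differences with 95% intervals (horizontal axis) for the 9 target genes. The left panel gives colonies minus monolayer in RT101 (red) and bFGF-JB6 (blue), and the right panel gives RT101 minus bFGF-JB6 in colonies (purple) and in monolayers (orange). Filled points passed an adjusted p of 0.05. Zmat3 and Bbc3 lie on opposite sides of 0 in the 2 lines, and Sesn1 lies right of 0 in both.

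Counted over the 9 measured targets, 6 passed in RT101 colonies against monolayers (3 higher, 3 lower), where 32.4% of all 12393 genes passed. In bFGF-JB6 colonies 4 passed (3 higher, 1 lower), against 29.4% of all genes. For the difference between these changes 6 passed (3 above 0, 3 below), against 27.7%, of which 15% above and 12.7% below. Between RT101 and bFGF-JB6, 6 passed in colonies (1 higher, 5 lower) and 7 in monolayers (3 higher, 4 lower), against 43.3% (22.7% higher, 20.7% lower) and 44.4% (23.2% higher, 21.2% lower) of all genes. With the test limited to the 6197 genes in the upper part by mean level, 6 of the 9 targets were left (Bbc3, Pmaip1 and Perp were not). Of these 6, 5 passed in RT101 colonies, 3 in bFGF-JB6 colonies, 5 for the difference, 6 between colonies and 6 between monolayers, against 58.6%, 51.6%, 49.4%, 69.9% and 70.9% of the 6197. Changes of at least 2-fold that passed were seen for 2 of the 9 in RT101 colonies, 1 in bFGF-JB6 colonies, 3 in the difference, 3 between colonies and 4 between monolayers, against 5.79%, 3.49%, 7.81%, 10.1% and 12.2% of all genes. Of the 15 probe sets 9, 6, 7, 10 and 13 passed in the same order, against 28.5%, 26.5%, 23.2%, 39.6% and 40.2% of all 22626 probe sets tested. The median log2 change of the 9 genes was -0.04 in RT101 colonies and 0.07 in bFGF-JB6 colonies, beside -0.01 and 0.03 over all genes. In each contrast some of the 9 were higher and others lower. Between RT101 and bFGF-JB6 colonies, 1 difference was positive and 8 were negative, with a median of -0.23 beside 0.003 over all genes. Between monolayers 4 were positive and 5 negative, with a median of -0.05 beside 0.05.

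Where a gene had several probe sets, their levels on the 2 arrays of raised 3' signal could part. On bFGF-JB6 colonies replicate 3 the second Trp53inp1 probe set lay 0.79 below the mean of the other arrays of its group, and on bFGF-JB6 monolayer replicate 1 it lay 0.75 below. For the brightest Trp53inp1 probe set those deviations were 0.23 and 0.08. The second Mdm2 probe set lay 0.62 and 0.45 below on these arrays, and a Ccng1 probe set 0.85 and 0.63 below. These 3 probe sets were thus low on the same 2 arrays, and the part of the raised 3' signal in this was not tested. The RT101 colony change of the second Trp53inp1 probe set was 0.82 with all arrays (adjusted p = 0.0640) and, without the 2 arrays, the same size with an adjusted p of 0.00753.

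**Figure D3:**
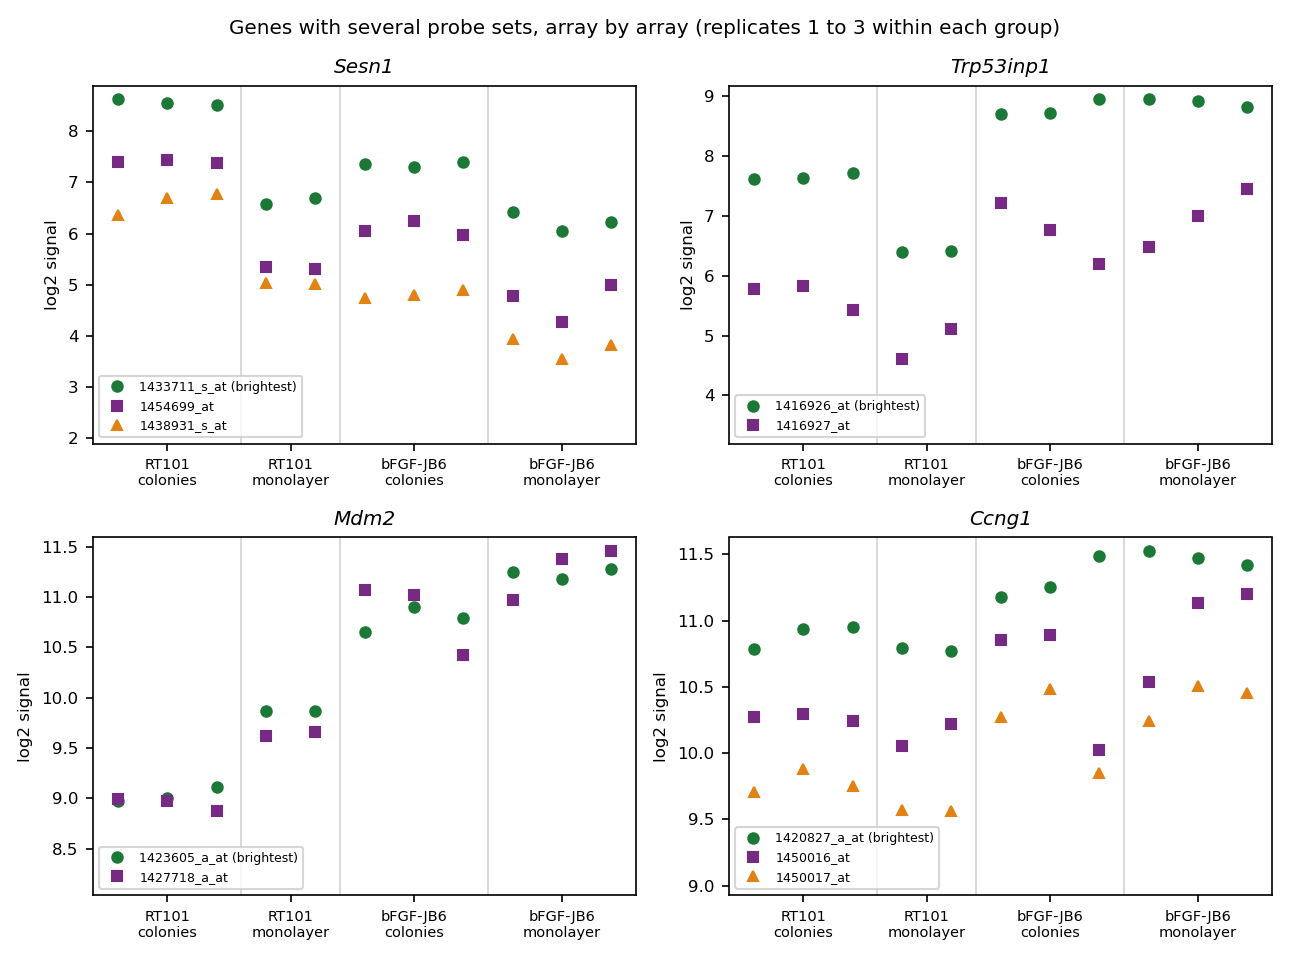
Log2 signal (vertical axis) of every probe set of Sesn1, Trp53inp1, Mdm2 and Ccng1 on each array, with replicates side by side inside each group and one marker per probe set. The Sesn1 probe sets rise in colonies of both lines; the weaker probe sets of Trp53inp1, Mdm2 and Ccng1 dip on bFGF-JB6 colonies replicate 3 and bFGF-JB6 monolayer replicate 1.

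Of 58 other genes widely reported as p53 targets, 47 were measured. In RT101 colonies 13 of them rose and 9 fell, where 17% and 15.4% of all genes did. Cd82, a tetraspanin linked to metastasis suppression, rose by 1.74 (adjusted p = 6.78e-08) on its brightest probe set, while a weaker one stood at -0.12 (adjusted p = 0.606). The death receptor gene Fas rose by 1.38 and Lpin1, a phosphatidate phosphatase, by 1.05. Plk2, a polo-like kinase, fell by 1.98, the ephrin receptor gene Epha2 fell by 1.77, and Gadd45a, a DNA damage and growth arrest gene, fell by 1.51. Sesn2, the sestrin that also answers to amino acid stress, fell by 1.14, whereas Sesn1 rose in the same cells.

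In bFGF-JB6 colonies 8 of the 47 rose and 12 fell, where 14.1% and 15.3% of all genes did. Gadd45a rose by 1.87 (adjusted p = 2.09e-09), opposite to its fall in RT101 colonies. Its signals were 10.05, 9.94 and 9.90 in bFGF-JB6 colonies, against 8.06, 8.15 and 8.08 in bFGF-JB6 monolayers, and 8.43, 8.36 and 8.27 in RT101 colonies, against 9.80 and 9.93 in RT101 monolayers. Dram1, an autophagy regulator, rose by 0.95 and Abcb1a, a drug efflux pump, by 0.88. Btg2, an antiproliferative gene, fell by 2.33 (adjusted p = 9.34e-08), followed by Ckap2 (-1.26), Pml (-1.11) and Plk3 (-1.10). Steap3, a ferrireductase gene, was at 1.06 in bFGF-JB6 (SE 0.31, adjusted p = 0.0184) and 1.07 in RT101 colonies (SE 0.34, adjusted p = 0.0283). The bFGF-JB6 call for Steap3 was lost without bFGF-JB6 colonies replicate 1 or 2 or bFGF-JB6 monolayer replicate 1 (adjusted p 0.0525 to 0.0742), and the RT101 call without any one of the 5 RT101 arrays (0.0526 to 0.202). A trended robust variance lost both calls (0.0791 and 0.105). Weaker Steap3 probe sets stood at 0.997 (adjusted p = 0.167 over all probe sets) and 1.05 (0.136) in bFGF-JB6 colonies, which did not pass. In RT101 colonies they stood at 1.36 (0.0885, not called) and 1.53 (0.049).

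In RT101 against bFGF-JB6 monolayers, 11 of the 47 were higher and 21 lower, where 23.2% and 21.2% of all genes were. Cdkn1a, which encodes the CDK inhibitor p21 and is the best known arrest gene under p53, was lower, at a log2 difference of -1.91 (SE 0.09, adjusted p = 7.82e-10). Its signals were 9.56 and 9.46 in RT101 monolayers, against 11.49, 11.37 and 11.39 in bFGF-JB6 monolayers; in colonies they were 9.60, 9.65 and 9.56 in RT101, against 11.19, 11.12 and 11.12 in bFGF-JB6. Between colonies and monolayers Cdkn1a stood at 0.10 in RT101 (adjusted p = 0.467) and at -0.27 in bFGF-JB6 (adjusted p = 0.0167). The latter call was lost without bFGF-JB6 monolayer replicate 1 (0.0625) and without the 2 arrays of raised 3' signal (0.0741). Cyclic loess scaling (0.0537) and a fit to these 2 groups alone (0.0585) lost it too. A weaker Cdkn1a probe set stood at 0.41 in RT101 (adjusted p = 0.23 over all probe sets) and at -0.80 in bFGF-JB6 colonies (0.0118). The RT101 arrays of Cdkn1a lay below the bFGF-JB6 arrays in both growth states, as those of Mdm2, Ccng1, Trp53inp1 and Phlda3 did on their brightest probe sets. For Sesn1 the RT101 arrays lay above in both growth states, and for Zmat3 and Bbc3 they lay above in monolayers. Such separation was common: 7 of the 9 targets did not overlap between the lines in monolayers and 7 in colonies. Of all genes, 61.1% and 50.4% did not overlap, in either direction. In monolayers Btg2 (-2.87), Steap3 (-1.91) and Lif (-1.69) were lower in RT101 too, while Gadd45a was higher by 1.77 (adjusted p = 3.22e-09). A weaker Lif probe set stood at -1.02 (adjusted p = 0.145 over all probe sets), which did not pass. The median log2 difference of the 47 genes was -0.23, beside 0.05 over all genes. In colonies 11 of the 47 were higher and 17 lower in RT101, where 22.7% and 20.7% of all genes were.

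Of 31 genes that act on p53, 24 were measured. In RT101 against bFGF-JB6 monolayers 12 were higher and none lower, where 23.2% and 21.2% of all genes were; 22 of the 24 differences were positive. The DNA damage kinase genes Atr and Chek1 led, at 1.65 (adjusted p = 4.66e-07) and 1.60 (adjusted p = 1.77e-05), followed by the p53 acetyltransferase gene Crebbp at 1.12. In RT101 against bFGF-JB6 colonies 13 were higher and 1 lower, where 22.7% and 20.7% of all genes were. The lower one was Cop1 (-0.20, adjusted p = 0.0451), named after its value was seen and not called without most single arrays or with the title number as a block. In RT101 colonies 1 rose, the p53 kinase gene Hipk2 (0.85), and 8 fell, where 17% and 15.4% of all genes did. Without RT101 monolayer replicate 1 only 4 fell, while the share of all genes called in either direction was 24.6%, against 32.4% with it. In bFGF-JB6 colonies 10 fell and 3 rose, where 15.3% and 14.1% of all genes did. Those that rose were Hipk2 (0.65), Crebbp (0.64) and the ubiquitin ligase gene Cop1 (0.36). Hipk2 and Cop1 were picked out after their values were seen. Mdm4, the partner of Mdm2 that masks the p53 activation domain, stood at -0.44 in RT101 colonies (adjusted p = 0.0116; 0.0781 without RT101 monolayer replicate 1) and at -0.43 in bFGF-JB6 colonies (adjusted p = 0.0078; 0.0786 without the 2 arrays of raised 3' signal). Cdkn2a, whose ARF product restrains Mdm2, lay near the floor in the 4 groups, from 2.53 to 2.98, and passed in none of the 5 contrasts (adjusted p from 0.617 to 0.945).

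**Figure D4:**
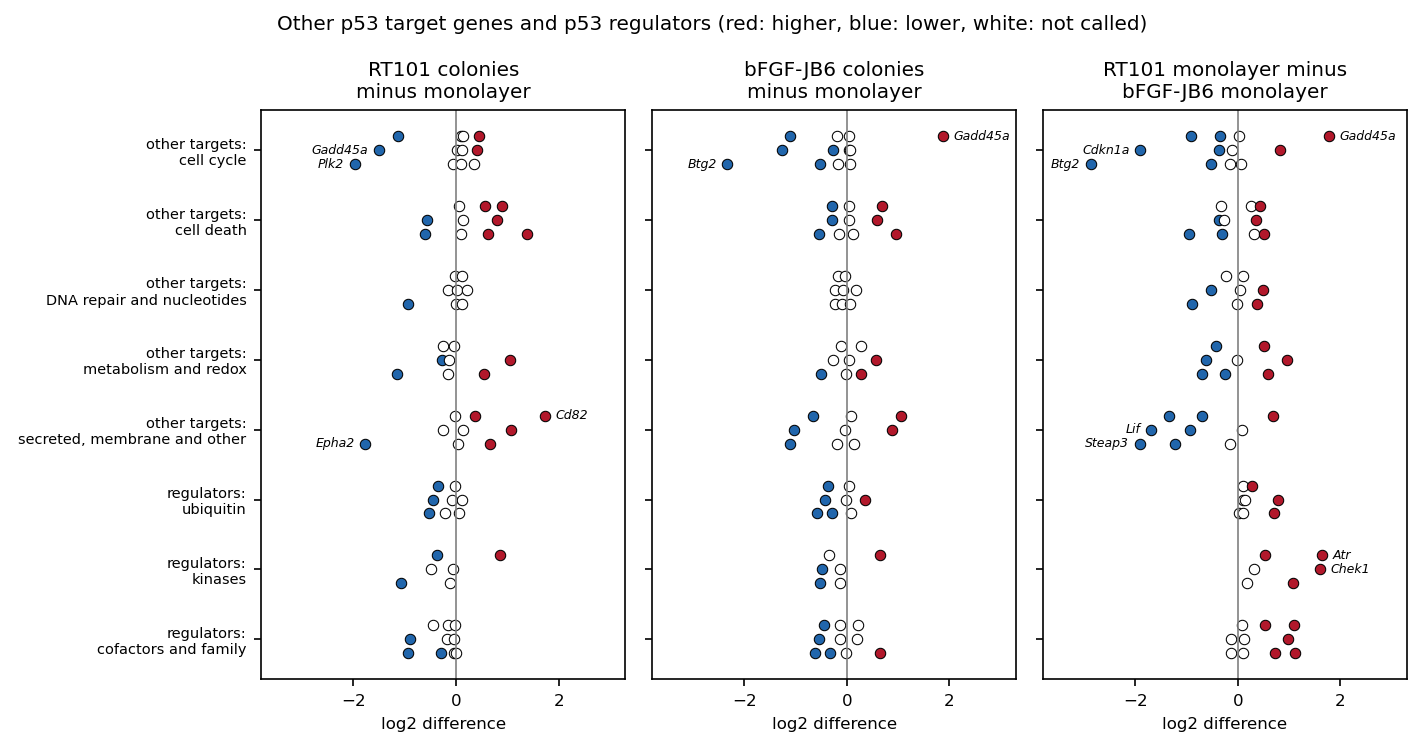
Log2 differences (horizontal axis) of 47 other p53 target genes and 24 regulators of p53, by group of function (rows), for RT101 colonies minus monolayer, bFGF-JB6 colonies minus monolayer, and RT101 minus bFGF-JB6 monolayer. Each point is a gene, red where higher and blue where lower at an adjusted p of 0.05, and genes past 1.4 are named. Gadd45a is on the left for RT101 colonies and on the right for bFGF-JB6 colonies, and the regulators lean right in the last panel.

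For the 5 targets whose group means spanned at least 1 log2 unit, the genes of most similar pattern were found by the root mean square distance between gene-centred signals over the 11 arrays. Closest to Mdm2 were Tnfaip2 (distance 0.15) and Bcr (0.15), and closest to Trp53inp1 were Ccng2 (0.13) and Stom (0.16). Ccng2, cyclin G2, averaged 7.24 in RT101 colonies and 6.20 in RT101 monolayers, and 8.57 in bFGF-JB6 colonies and 8.74 in bFGF-JB6 monolayers. Closest to Sesn1 were Reck (0.25) and Pmepa1 (0.28), to Phlda3 Plscr1 (0.08) and Pik3r2 (0.09), and to Zmat3 Rbm39 (0.10) and Nr1d2 (0.11). Reck averaged 7.80 in RT101 colonies and 6.07 in RT101 monolayers, and 6.24 in bFGF-JB6 colonies and 5.31 in bFGF-JB6 monolayers. These distances are a description over 11 arrays in 4 groups.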

How the data were processed

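Biotin-labelled RNA of 11 samples was hybridised to 1 Affymetrix array each. The values used are the authors' deposited log2 signals, normalised with RMA according to the submitters' processing notes (version not given in the sources used here). RMA makes no detection call, and it understates folds of dim genes.

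Of 22690 probe sets, 64 were controls, 20380 named 1 gene, 691 several and 1555 none. The brightest single-gene probe set stood for each of 12393 genes. A model with group as its only term was fitted to the 11 arrays with limma 3.58.1 in R 4.3.3 (7 residual and 6.12 prior degrees of freedom). Adjusted p-values are Benjamini-Hochberg values across the 12393 genes, with a threshold of 0.05, and SE stands for limma's moderated standard error (log2). The fit was also run on simulated data with independent noise for each array. That run cannot bear on pairing of arrays, raised 3' signal or replicates that are only technical. RT101 and bFGF-JB6 colonies share replicate numbers and letters. Between them, deviations from the group means correlated at 0.32, 0.11 and 0.23 in the 3 same-numbered pairs, and at -0.23 to 0.02 in the others. The numbers may thus pair these arrays, a reading taken from these same data and not tested. The main fit holds no term for a pairing, and fits with a block are given below. The number of arrays limits the precision.

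The members and gene lists were chosen with earlier results of these data known. Outside the 9 targets, the rule named, among other targets and regulators, the 4 largest called rises and falls in each colony comparison and between monolayers, and always Cdkn1a, Mdm4 and Cdkn2a. For targets whose group means spanned at least 1 log2 unit it named the 2 genes of closest pattern. Alternatives covered replicate blocks, gene summaries, a filter on weak genes, 2 further scalings, variance settings, fits to fewer groups or arrays and a 2-fold minimum. Figures used matplotlib 3.10.9 (Python 3.11.15).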

Additional observations from a re-analysis of the deposited data

Results flagged for a closer look

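On their brightest probe sets, the colony changes of 6 targets differed between the lines in the direct test of that difference (RT101 colony change minus bFGF-JB6 colony change, log2). The values were 1.35 for Trp53inp1, 0.81 for Sesn1 and 0.59 for Phlda3, and -1.5 for Zmat3, -1.09 for Bbc3 and -0.38 for Mdm2. Of all 12393 genes 27.7% passed this test.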

How the results depend on the processing

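With at least 2-fold added to the adjusted p, the number of targets called was 2 in RT101 colonies, 1 in bFGF-JB6 colonies, 3 for the difference between these changes, 3 between lines in colonies and 4 between lines in monolayers. Leaving out single arrays gave 6, 3 to 4, 5 to 7, 5 to 6 and 6 to 7 calls in the same order. Over 45 results (9 targets in 5 contrasts) and their alternatives, 922 of 966 values stayed on the same side of the threshold, 39 calls were lost, 5 were gained and no called value changed sign. Perp, never called, changed sign under some alternatives (-0.10 to 0.02 in RT101 colonies, -0.10 to 0.01 between monolayers). The losses were those of Bbc3 in bFGF-JB6 colonies and between colonies, of Mdm2 in the difference between lines and of Sesn1 between monolayers. Over all comparisons, that of colonies between lines included, same-numbered arrays did not all deviate together. By title, r over 15 pairs ran from -0.34 to 0.32, with 5 over 0.1. By description letter it ran from -0.28 to 0.32, with 8 over 0.1. The highest value, 0.32, belonged to a pair of colony arrays. With the title number as a replicate block the calls were 6, 4, 6, 5 and 7 of 9, and with the letter 6, 4, 5, 5 and 7; of all genes, 3887 and 3912 passed in RT101 colonies under the 2 blocks and 4013 without a block. Without the 2 arrays of raised 3' signal the calls were 6, 3, 5, 5 and 7. With 2 RT101 monolayer arrays, leaving out either assumes that the lone one varies like the other groups.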

Other observations

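Further regulators of p53 stood higher in RT101 than in bFGF-JB6 monolayers and were chosen here after their values were seen: the p53 kinase gene Hipk2 by 1.08 on the log2 scale (adjusted p = 6.09e-07), the arginine methyltransferase gene Prmt5 by 1.09 (adjusted p = 4.87e-07), the deacetylase gene Sirt1 by 0.97 (adjusted p = 8.73e-06) and the deubiquitinase gene Usp7 by 0.78 (adjusted p = 5.13e-05). Among repair and nucleotide supply targets, Rrm2b, a ribonucleotide reductase subunit under p53, changed by -0.94 in RT101 colonies, and Ddb2, a sensor of ultraviolet damage, differed by -0.89 between RT101 and bFGF-JB6 monolayers; both were picked after their values were seen, and none of the 8 measured genes of that group passed in bFGF-JB6 colonies, where 29.4% of all genes did.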
